A study of Mus musculus with 7 samples.

Results

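Genes of the NRF2, glutathione and thioredoxin systems were read in 7 RNA-seq libraries. The RNA came from mouse liver, from cells sorted for CD4 and CD25, the surface proteins that mark regulatory T cells (Treg). The list holds 43 genes named by symbol: regulators of the NRF2 response, enzymes of heme and quinone handling, the glutathione and thioredoxin systems, the enzymes that supply their NADPH, glutathione transferases and ferritin. All 43 were found among the 53465 gene IDs counted, and 42 of them were among the 14784 genes with enough counts to test. NCD stands for wild type C57BL/6 mice on a normal control diet (2 libraries), and MCD for wild type mice on a diet deficient in methionine and choline (2 libraries). CD73-MCD stands for CD73 knockout mice on the same deficient diet (3 libraries). CD73, encoded by Nt5e, is a cell surface enzyme that makes adenosine from AMP. The feeding lasted 4 weeks. Knockout mice on the control diet were not analysed here, and the effects of the knockout on the normal diet cannot be read. The labels do not give the part of Nt5e that was deleted, the age of the mice or whether each library came from a separate animal. All p-values therefore rest on the differences between replicate libraries, which may be technical.

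NRF2 (gene Nfe2l2) is a transcription factor that KEAP1 holds in the cytosol and hands over for degradation. Oxidants and electrophiles modify cysteines of KEAP1, NRF2 then accumulates, pairs with a small Maf protein and binds antioxidant response elements in the promoters and enhancers of genes for detoxification and redox balance. Glutathione, made from glutamate, cysteine and glycine, and thioredoxin both carry reducing power from NADPH to peroxides and to oxidised proteins. Macrophages that clear red cells also use heme oxygenase and ferritin heavily, and T cells need glutathione and thioredoxin for growth after activation.

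The libraries held 19731501 to 24398738 counts, so that 3 counts, the limit a count of 0 allows, are worth 0.129 to 0.158 CPM (counts scaled to library size, with TMM factors). This limit covers counting error only. The targeted gene Nt5e had 243 and 241 CPM in NCD, 177 and 87.6 CPM in MCD and 5.88, 14.5 and 6.43 CPM in CD73-MCD. All 9 T cell markers and all 5 Treg markers of lists fixed for this work were counted in every library, and so were markers of other cells. The 15 Kupffer cell and macrophage markers summed to 10937 and 1226 CPM in NCD, 2473 and 33281 CPM in MCD and 12741, 9530 and 7471 CPM in CD73-MCD. Lyz2 alone made up most of each sum, with 7757 and 845 CPM in NCD, 1837 and 26675 CPM in MCD and 11324, 8374 and 6151 CPM in CD73-MCD. Of these 15, 3 (Timd4, Cd163 and Fcna) were at 0 in at least 1 library. MCD replicate 2 was highest for 11 of the 15 and for 10 of 10 monocyte and neutrophil markers, and it had the lowest T cell sum (4852 CPM against 5804 to 12464 CPM) and the lowest Treg sum (694 CPM against 1269 to 2089 CPM). In such bulk libraries, fewer cells of a type and less RNA per cell cannot be told apart.

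Most of the 42 tested genes had their highest level in 1 and the same library. MCD replicate 2 held the highest level of 29 of the 42 (69.0%), where 17.4% of all tested genes were highest. NCD replicate 2 held the lowest level of 19 (45.2%, against 16.5% of all tested genes), and no member was lowest in MCD replicate 2. In 14 members (33.3%) the level in MCD replicate 2 was over 2 times that of the next highest library, against 3.46% of all tested genes. These were Blvrb (4.36 times), Gstm1 (4.29), Mgst1 (4.14), Idh1 (3.68), Gclm (3.44), Ftl1 (2.99), Gpx1 (2.77), Gsto1 (2.59), Prdx1 (2.51), Pgd (2.49), Gsr (2.33), Prdx5 (2.19), Fth1 (2.16) and Taldo1 (2.06). The same library is the one with the highest macrophage marker sum, and NCD replicate 2 is the one with the lowest. The part of these markers in the members' levels was not tested.

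**Figure D1:**
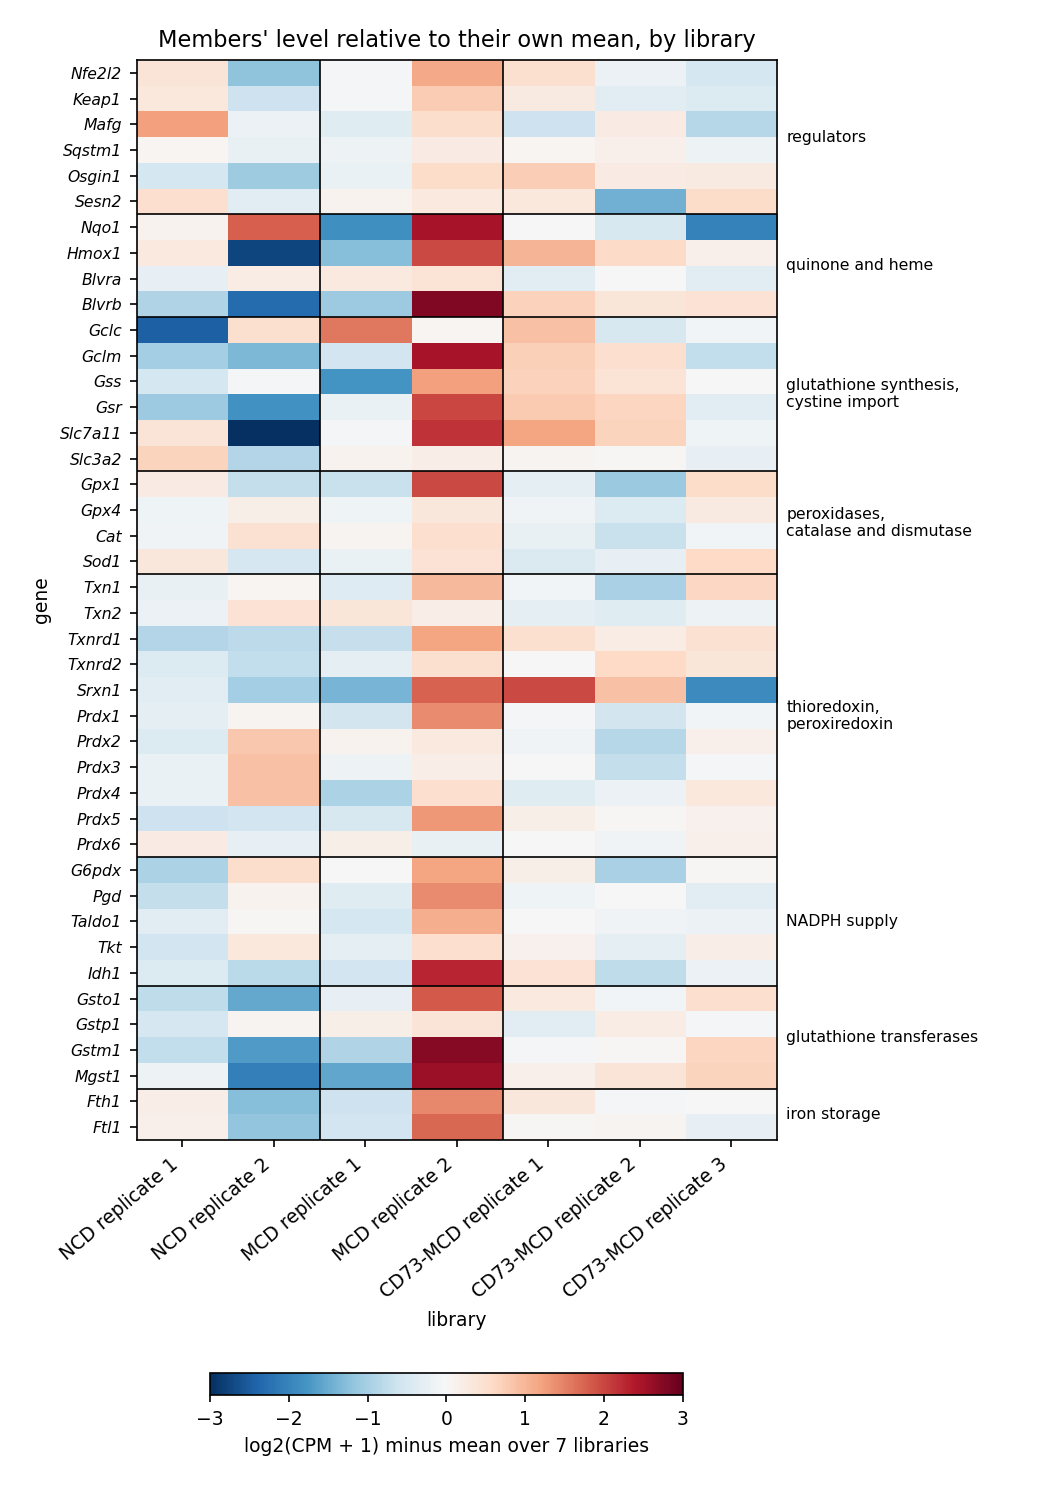
Level of the 42 tested genes in each of the 7 libraries, as log2(CPM + 1) minus the gene's own mean over the libraries (colour), with genes in rows by role and libraries in columns by group. MCD replicate 2 is the reddest column, with the highest level of 29 of 42 genes, and NCD replicate 2 has the lowest level of 19.

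The 43 genes together took 1.27% and 0.843% of counts in NCD, 0.940% and 2.98% in MCD and 1.42%, 1.18% and 1.20% in CD73-MCD. Ferritin made up most of this in MCD replicate 2, where Fth1 and Ftl1 summed to 17833 CPM, but the other 41 genes were also highest there (11953 CPM, against 5341 to 6671 CPM in the other 6 libraries). Per kilobase of principal transcript, the ferritin heavy chain Fth1 stood first with a mean of 4566 CPM per kb over the 7 libraries, followed by Ftl1 (1823), Taldo1 (730), Sqstm1 (531) and Prdx1 (528). At the other end, Slc7a11 had 3.30 CPM per kb, and Gclc and Srxn1 had 1.77 CPM per kb each. The malic enzyme gene Me1 had 9 counts in NCD replicate 1, 7 in CD73-MCD replicate 1 and 0 in the other 5 libraries, and was the 1 gene of the list that was not tested.

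The promoters were searched for the core of the antioxidant response element, TGACNNNGC, on both strands, over 250 bases before to 50 bases after each start site in RefSeq (GRCm38.p6). The table held 51 promoters of 39 of the 43 genes, and those of Hmox1, Gclc, Gsr and Prdx6 were not analysed here. The core was found for 13 genes (33.3% of 39, against 14% of all 27025 genes in the table, and 25.5% of their promoters against 12.4% of all 32851): Nfe2l2, Mafg, Sesn2, Blvra, Gclm, Sod1, Txnrd1, Srxn1, Prdx1, G6pdx, Pgd, Me1 and Mgst1. The windows below show how the core lies in the first 4 of these in order of role, and in Gclm and Txnrd1, which were added because later results name them. Each is written 5′ to 3′ on the strand of its gene, with the 9 bases of the core in capitals and 10 bases on each side. Capitals read GCNNNGTCA where the core lies on the other strand.
Nfe2l2, chr2:75704885-75704913, minus strand: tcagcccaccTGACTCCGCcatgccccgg
Mafg, chr11:120633751-120633779, minus strand: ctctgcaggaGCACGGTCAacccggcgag
Sesn2, chr4:132510474-132510502, minus strand: cgcagcgggcTGACAGAGCcgggcgagcg
Blvra, chr2:127070598-127070626, plus strand: cacgggaattGCTCGGTCAaggctccgcc
Gclm, chr3:122245413-122245441, plus strand: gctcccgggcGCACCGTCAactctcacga
Txnrd1, chr10:82859104-82859132, plus strand: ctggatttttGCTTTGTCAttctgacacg
The first base of the core lay at -240 from the start site in Nfe2l2, -222 in Mafg, -36 in Sesn2, -49 in Blvra, -134 in Gclm and -92 in Txnrd1. The Txnrd1 window lies inside the gene, which is annotated from 82833951 on, so its start site is not the first of that gene. Such a match is a string of letters, not a site shown to be bound. In MCD against NCD, 11 of the 12 tested genes with the core had a log2 fold change above 0 (median 0.84), and 23 of the 26 without it (median 0.58). Without MCD replicate 2 both medians were close to 0, at -0.08 and -0.09.

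Among the regulators, the transcript of NRF2 itself differed between replicates as widely as between groups. Nfe2l2 (ENSMUSG00000015839, GRCm38 chromosome 2, 75675513 to 75704641, minus strand) had 203 and 66.2 CPM in NCD, 148 and 340 CPM in MCD and 215, 138 and 106 CPM in CD73-MCD. The groups overlapped, and the highest and lowest libraries were MCD replicate 2 and NCD replicate 2. Keap1, the adaptor that marks NRF2 for degradation, had 36.0 and 18.3 CPM in NCD, 27.9 and 49.2 CPM in MCD and 34.8, 22.7 and 21.2 CPM in CD73-MCD, with its extremes in the same libraries. The log2 fold change of Nfe2l2 was 0.86 (SE 0.63) in MCD against NCD, -0.67 (SE 0.57) in CD73-MCD against MCD and 0.18 (SE 0.58) in CD73-MCD against NCD, with edgeR adjusted p = 0.861, 1 and 0.984. Sqstm1, the autophagy receptor p62 that also binds KEAP1, was the steadiest of the regulators (918 to 1282 CPM). Mafg, a small Maf partner of NRF2, ran from 12.2 to 54.8 CPM and was highest in NCD replicate 1. Its exons overlap those of Sirt7 on the same strand, and exons of Keap1 and Sqstm1 overlap genes on the opposite strand. The counts of all 3 are therefore uncertain. The same limit holds for Gclm, Prdx2, G6pdx, Tkt, Me1 and Ftl1, whose exons also overlap other annotated genes. Sesn2, a stress-induced sestrin, had 25.4 to 48.0 CPM in 6 libraries and 11.1 CPM in CD73-MCD replicate 2.

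Osgin1, a known NRF2 target whose product restrains growth under oxidative stress, differed from the other regulators in that it was low in both control libraries. It (ENSMUSG00000074063, chromosome 8, 119434124 to 119446256, plus strand) had 42.6 and 29.1 CPM in NCD, 54.2 and 92.3 CPM in MCD and 104, 73.7 and 75.6 CPM in CD73-MCD. All 5 libraries from the deficient diet stood above both NCD libraries. The share of all tested genes with this order was not computed. Taken alone, MCD was above NCD without overlap in 16.8% of all tested genes, and CD73-MCD was in 13.4%. In CD73-MCD against NCD Osgin1 stood 1.24 higher on the log2 scale (SE 0.39), with an edgeR adjusted p of 0.462, the smallest of the list in that comparison. With each library left out in turn its lowest value was 0.995, without NCD replicate 2.

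Of the enzymes of heme and quinone handling, Hmox1 and Blvrb were far apart between replicates of the same group. Hmox1, the inducible heme oxygenase (ENSMUSG00000005413, chromosome 8, 75093621 to 75100589, plus strand), had 188 and 21.6 CPM in NCD, 62.1 and 608 CPM in MCD and 310, 227 and 169 CPM in CD73-MCD. The 3 knockout libraries lay between the 2 MCD libraries. Its highest level was 28.1 times its lowest. Blvrb, a reductase of biliverdin IX-beta and of flavins, had 10.6 and 3.35 CPM in NCD, 9.16 and 148 CPM in MCD and 33.9, 26.9 and 28.1 CPM in CD73-MCD. MCD replicate 1 was inside the NCD range for Blvrb, whereas all 3 knockout libraries were above both NCD libraries. Blvra, which turns the biliverdin made by heme oxygenase into bilirubin, was steadier, at 93.2 and 131 CPM in NCD, 136 and 149 CPM in MCD and 87.8, 111 and 89.1 CPM in CD73-MCD. Nqo1, the quinone reductase that is the classic readout of NRF2 activity, was counted at low levels: 3.39 and 13.1 CPM in NCD, 0.139 and 21.6 CPM in MCD and 3.11, 1.95 and 0 CPM in CD73-MCD. The 0 stands for no counts, which allows up to 0.143 CPM, and the value of MCD replicate 1 rests on 3 counts. Its 3 knockout libraries were below both NCD libraries, but the fitted log2 difference was -2.29 with an SE of 2.06 (CD73-MCD against NCD, edgeR adjusted p = 0.815).

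Of the genes that make and recycle glutathione, Gsr and Gclm were lower in both NCD libraries than in all 5 libraries from the deficient diet. How many of all tested genes had this order was not computed. Both MCD libraries were above both NCD libraries in 16.8% of all tested genes, and all 3 CD73-MCD libraries were in 13.4%. Gsr, which returns oxidised glutathione to its reduced form (ENSMUSG00000031584, chromosome 8, 33652523 to 33698163, plus strand), had 67.3 and 40.7 CPM in NCD, 126 and 586 CPM in MCD and 252, 226 and 115 CPM in CD73-MCD. The knockout libraries lay below MCD replicate 2 and on either side of MCD replicate 1. Gclm, the modifier subunit of glutamate-cysteine ligase, had 9.41 and 7.30 CPM in NCD, 13.3 and 115 CPM in MCD and 33.6, 29.1 and 11.6 CPM in CD73-MCD. MCD replicate 1 and CD73-MCD replicate 3 were only a little above NCD for Gclm. The catalytic subunit Gclc did not follow its partner: it had 0 and 6.57 CPM in NCD, 15.2 and 4.62 CPM in MCD and 8.89, 2.90 and 4.14 CPM in CD73-MCD, with its highest level in MCD replicate 1.

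Slc7a11, the cystine carrier of the xCT antiporter, had 24 and 0 CPM in NCD, 17.4 and 83.9 CPM in MCD and 42, 29.4 and 16.4 CPM in CD73-MCD. The NCD libraries held 475 and 0 counts of it, so its fitted fold changes against NCD depend on how the 0 is treated (a count of 0 in NCD replicate 2 allows up to 0.129 CPM). The same holds for Gclc, with 0 and 153 counts in NCD. Their log2 fold changes in MCD against NCD were 2.08 (SE 1.85) for Slc7a11 and 1.59 (SE 1.95) for Gclc, with edgeR adjusted p = 0.923 and 0.983. In CD73-MCD against NCD they were 1.29 (SE 1.70) for Slc7a11 and 0.69 (SE 1.77) for Gclc, with edgeR adjusted p = 0.909 and 0.976. Slc3a2, the heavy chain that Slc7a11 shares with other amino acid carriers, had 164 CPM in NCD replicate 2 and 255 to 480 CPM elsewhere. Gss, which adds glycine in the last step of glutathione synthesis, ran from 2.79 CPM in MCD replicate 1 to 29.8 CPM in MCD replicate 2. Its exons overlap 3 other genes, and its counts are uncertain.

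Among Gpx1, Gpx4, Cat and Sod1, which remove peroxide or superoxide, only Gpx1 was over 2 times as high in MCD replicate 2 as in any other library. Gpx1, the cytosolic glutathione peroxidase, had 27.1 and 13.4 CPM in NCD, 13.9 and 92.5 CPM in MCD and 18.6, 9.88 and 33.4 CPM in CD73-MCD. Gpx4, which reduces lipid hydroperoxides in membranes, varied little: 63.0 and 77.5 CPM in NCD, 62.8 and 87.0 CPM in MCD and 63.4, 51.8 and 82.7 CPM in CD73-MCD. Catalase (Cat) had 261 and 384 CPM in NCD, 295 and 396 CPM in MCD and 240, 176 and 265 CPM in CD73-MCD. The 3 knockout values for catalase were below both MCD libraries, with the highest of them also above NCD replicate 1. Sod1, the cytosolic superoxide dismutase, had 3.82 to 9.24 CPM, and its mean of 9.52 CPM per kb was below that of Cat (110 CPM per kb). Of the 50-base windows of Gpx4 68.9% also occur in other annotated genes, and of Sod1 23.1%, so reads of these could be split or dropped, depending on how they were counted.

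**Figure D2:**
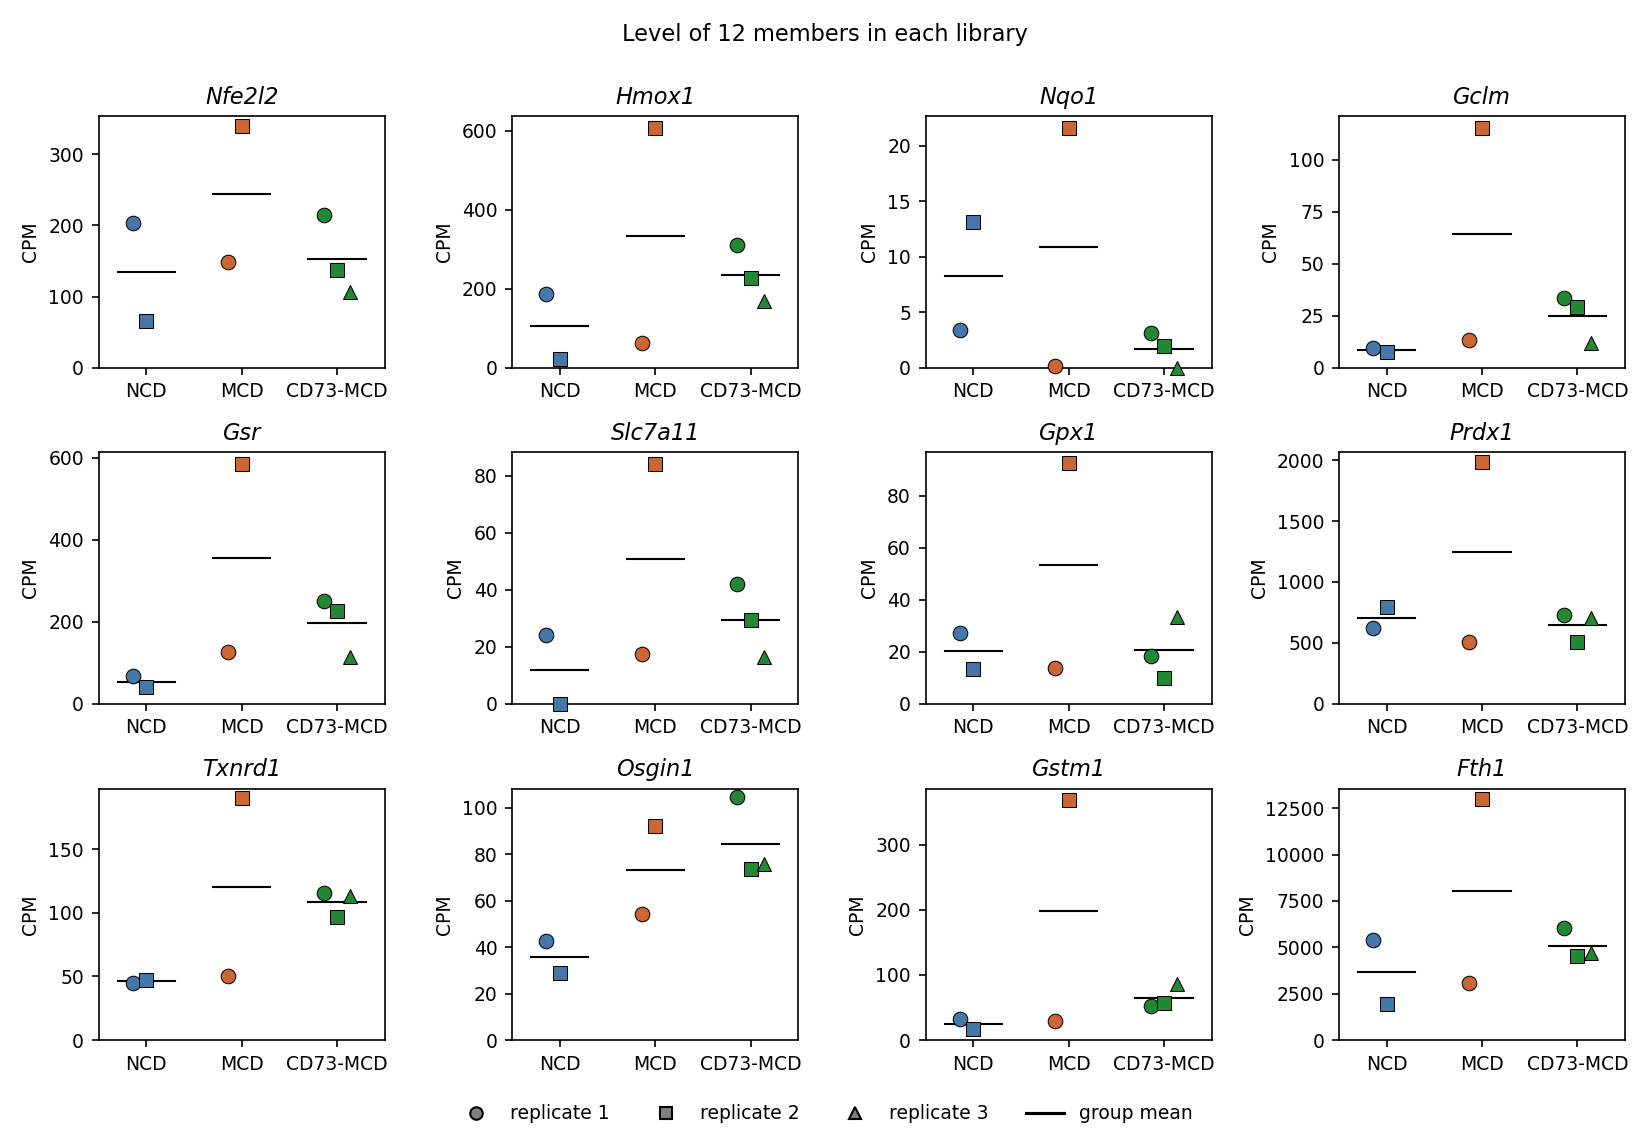
CPM of 12 of the genes in each library, with 1 panel per gene, groups on the x axis, markers by replicate number and a line at the group mean (all y axes are linear and start at 0). MCD replicate 2 is the highest point in all panels but Osgin1, where CD73-MCD replicate 1 (104 CPM) is above it (92.3 CPM).

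In the thioredoxin system the reductase Txnrd1 behaved unlike its substrate. Txnrd1, the cytosolic reductase (ENSMUSG00000020250, chromosome 10, 82833951 to 82897712, plus strand), had 44.8 and 47.5 CPM in NCD, 50.8 and 190 CPM in MCD and 116, 96.8 and 113 CPM in CD73-MCD. The NCD libraries were close together, MCD replicate 1 was just above them, and the 3 knockout libraries were close together at over 2 times the control level. Txn1, the cytosolic thioredoxin that Txnrd1 reduces, had 61.7 and 74.3 CPM in NCD, 54.7 and 142 CPM in MCD and 67.6, 36.1 and 111 CPM in CD73-MCD, so that the groups overlapped. The mitochondrial pair ran from 199 to 350 CPM for Txn2, which had 227 and 350 CPM in NCD, 332 and 295 CPM in MCD and 209, 199 and 232 CPM in CD73-MCD. Txn2 was lower in every knockout library than in either MCD library. Its reductase Txnrd2 had 7.26 to 19.8 CPM, with all 5 libraries from the deficient diet above NCD (share over all tested genes not computed). Its counts are uncertain.

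The peroxiredoxins, which use thioredoxin to reduce peroxides, did not form 1 pattern. Prdx1 had 619 and 793 CPM in NCD, 511 and 1988 CPM in MCD and 733, 507 and 704 CPM in CD73-MCD, and MCD replicate 2 alone stood apart. Prdx5 had 194 to 214 CPM in the NCD libraries and MCD replicate 1, 303 to 337 CPM in the knockout and 738 CPM in MCD replicate 2. Of the 50-base windows of Prdx5 29.7% lie in Trmt112, which it overlaps, and its counts are uncertain. Prdx2, Prdx3 and Prdx4 were highest in NCD replicate 2, at 314, 64.8 and 59.7 CPM, and had negative log2 fold changes in MCD against NCD (-0.12, -0.40 and -0.49). Prdx6 ranged only from 344 to 479 CPM. Srxn1, the sulfiredoxin that rescues overoxidised peroxiredoxins, had 1.97 and 0.859 CPM in NCD, 0.418 and 11.8 CPM in MCD and 13.8, 5.93 and 0 CPM in CD73-MCD. The replicates of both deficient diet groups thus spanned nearly its whole range, from 0 counts to 284.

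NADPH is supplied in the cytosol by the pentose phosphate pathway and by isocitrate dehydrogenase and malic enzyme. Idh1, the cytosolic isocitrate dehydrogenase, had 23.3 and 17.7 CPM in NCD, 21 and 159 CPM in MCD and 43, 18.1 and 27.9 CPM in CD73-MCD, and MCD replicate 2 alone stood apart. G6pdx and Pgd, the oxidative enzymes of the pentose phosphate pathway, ran from 66.1 to 299 CPM and from 40.6 to 181 CPM. Taldo1 and Tkt, of its nonoxidative arm, ran from 584 to 1782 CPM and from 235 to 491 CPM. All 4 were highest in MCD replicate 2. The group median of the 5 tested genes in MCD against NCD was 0.74, and -0.12 without that library.

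The 4 glutathione transferases had the largest diet difference of any role, and it too rested mostly on 1 library. Their summed level was 54.4 and 32.8 CPM in NCD, 58.2 and 489 CPM in MCD and 90.5, 92.6 and 133 CPM in CD73-MCD. Gstm1, a mu class transferase, had 32.6 and 16.3 CPM in NCD, 29.1 and 368 CPM in MCD and 52.4, 56.2 and 85.9 CPM in CD73-MCD. Gsto1, an omega class enzyme that also acts as a dehydroascorbate reductase, had 12.2 and 6.74 CPM in NCD, 18.1 and 80.2 CPM in MCD and 26.7, 20.2 and 30.9 CPM in CD73-MCD. For both genes the 3 knockout libraries were above both NCD libraries (13.4% of all tested genes). For Gsto1 so were both MCD libraries (16.8%). Mgst1, a microsomal enzyme, ran from 0.215 CPM in NCD replicate 2 to 28.6 CPM in MCD replicate 2. Gstp1, a pi class enzyme, had 6.07 to 12.1 CPM, and 62.3% of its 50-base windows also occur in other annotated genes, so that its level is uncertain. The share for Gstm1 was 23.2%.

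Ferritin, which stores iron, was the most abundant part of the list and varied 6.64-fold (Fth1) and 7.47-fold (Ftl1) between libraries. Fth1, the heavy chain (ENSMUSG00000024661, chromosome 19, 9980598 to 9985098, plus strand), had 5419 and 1958 CPM in NCD, 3074 and 13002 CPM in MCD and 6031, 4541 and 4692 CPM in CD73-MCD. Ftl1, the light chain, had 1615 and 647 CPM in NCD, 988 and 4830 CPM in MCD and 1491, 1556 and 1228 CPM in CD73-MCD. Both chains put the 4 wild type libraries in the same order. The ratio of Fth1 to Ftl1 per kilobase stayed between 2.15 (MCD replicate 2) and 3.23 (CD73-MCD replicate 1). Since 90.6% of the 50-base windows of Ftl1 also occur in 17 other annotated genes, among them its pseudogene Ftl1-ps1, this ratio depends on how such reads were counted.

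MCD against NCD asks how the sorted cells differ on the deficient diet in wild type mice. Of the 42 tested genes 37 had a higher fitted level on the deficient diet and 5 a lower one (Mafg, Prdx2, Prdx3, Prdx4 and Prdx6). Their median log2 fold change was 0.75, against 0.04 over all tested genes, of which 52.3% were higher. No gene of the list or of all tested genes passed an edgeR adjusted p of 0.05 (0 of 14784, 0.00%). At an unadjusted edgeR p under 0.05 stood 9 genes of the list, all higher (Gsr, Gsto1, Blvrb, Gclm, Gstm1, Osgin1, Txnrd1, Prdx5 and Idh1), beside 6.00% of all tested genes (887) and 3.96% that were higher. This count was 5 without any 1 of the CD73-MCD libraries, which enter through the common estimate of the spread. Of all tested genes 4.93%, 5.76% and 5.90% did so without CD73-MCD replicate 1, 2 and 3. In a fit of NCD and MCD alone the count was 3 (Gclm, Gsr and Gsto1), beside 5.32% of all tested genes. With the replicate number as a block it was 1 (Gsr), beside 3.48%. With 1 MCD library left, the median log2 fold change of the list was -0.06 without MCD replicate 2 and 1.26 without MCD replicate 1. Both MCD libraries were above both NCD libraries for 9 genes (21.4%, beside 16.8% of all tested genes), namely Osgin1, Blvra, Gclm, Gsr, Txnrd1, Txnrd2, Prdx5, Gsto1 and Gstp1. They were below both for 0, beside 14.8%.

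The smallest p of the list was that of Gsr, with 54.0 ± 18.8 CPM in NCD (SD, n = 2) and 356 ± 325 CPM in MCD (SD, n = 2), a log2 fold change of 2.72 (SE 0.75, edgeR adjusted p = 0.712). Next came Gsto1 with 2.37 (SE 0.75), Blvrb with 3.49 (SE 1.18), Gclm with 2.94 (SE 1.0) and Gstm1 with 3.02 (SE 1.03), at edgeR adjusted p = 0.746, 0.777, 0.777 and 0.777. DESeq2 called 314 of the 14784 tested genes. Among them were 3 of these 5 and no other gene of the list. They were Gsr (DESeq2 adjusted p = 0.00874), Blvrb (DESeq2 adjusted p = 0.0441) and Gstm1 (DESeq2 adjusted p = 0.0461). For Blvrb and Gstm1, MCD replicate 1 lay inside the NCD range (9.16 and 29.1 CPM), and MCD replicate 2 had 148 and 368 CPM. With no filter on low counts edgeR also called Gsr (adjusted p = 0.0439). Txnrd1 had 1.38 (SE 0.56), Hmox1 1.68 (SE 1.16) and Nqo1 0.39 (SE 2.25), at edgeR adjusted p = 0.808, 0.845 and 1. The SD in MCD was near or above the mean for most of these genes, and their groups differed by less than that spread.

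The direction of the list depended on MCD replicate 2. Without it 20 of the 42 genes were higher and 22 lower, with a median of -0.06 (all genes -0.01). Gsr was then at 1.22, Gsto1 at 0.93, Gclm at 0.67, Osgin1 at 0.60, Blvrb at 0.40, Gstm1 at 0.25, Txnrd1 at 0.14 and Hmox1 at -0.75. By role, the median of the glutathione transferases went from 2.68 with all libraries to 0.33, that of glutathione synthesis and cystine import from 1.84 to 0.61, that of ferritin from 1.24 to -0.23 and that of thioredoxins and peroxiredoxins from 0.53 to -0.22. MCD replicate 2 exceeded MCD replicate 1 in 39 of the 42 genes (92.9%, against 51.3% of all tested genes), with a median log2 CPM difference of 1.45 between the replicates (0.04 over all tested genes).

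**Figure D3:**
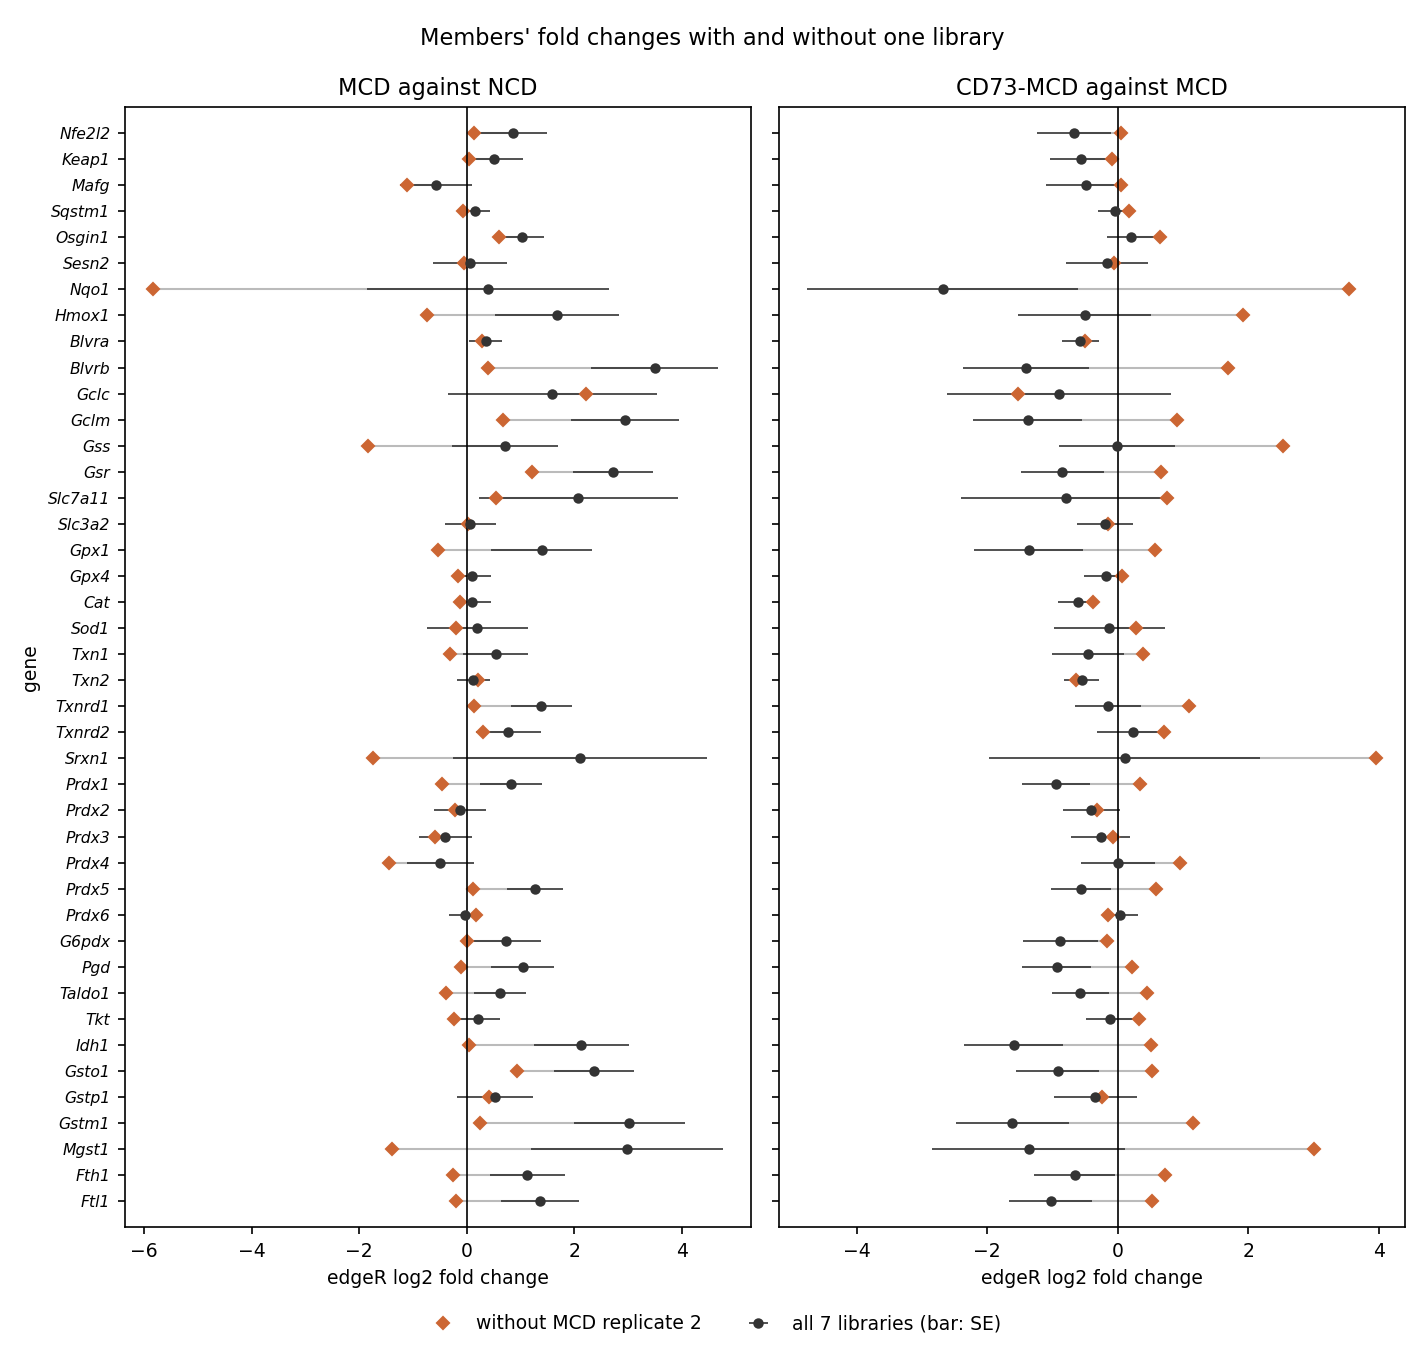
edgeR log2 fold change of each of the 42 tested genes in MCD against NCD (left) and CD73-MCD against MCD (right), with all 7 libraries (black points, bars of 1 SE) and without MCD replicate 2 (orange diamonds, joined to the point by a grey line). Most points are right of 0 on the left and left of 0 on the right, and without that library the medians go from 0.75 to -0.06 and from -0.56 to 0.41.

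CD73-MCD against MCD compares the knockout with wild type under the same deficient diet. It shares the MCD libraries with the diet comparison, so both comparisons read MCD replicate 2. Of the 42 genes 4 had a higher fitted level in the knockout and 38 a lower one, with a median log2 fold change of -0.56 (all tested genes -0.03, of which 47.9% were higher). No tested gene passed an edgeR adjusted p of 0.05 (0 of 14784, 0.00%), and DESeq2 called 50, 0 of them in the list. No gene of the list had an unadjusted edgeR p under 0.05, beside 3.25% of all tested genes (480). Without MCD replicate 1 there were 13, all lower (4.12% of all tested genes), and without MCD replicate 2 there were 2, Gss and Txnrd1, both higher (2.88%). The 3 knockout libraries were below both MCD libraries for 4 genes, Blvra, Slc3a2, Cat and Txn2 (9.52%, beside 9.66% of all tested genes), and above both for 0, beside 8.37%. This share is near the background.

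The smallest p-values here were those of Idh1, at -1.60 (SE 0.76), and of 3 genes with low spread: Blvra at -0.57 (SE 0.28), Txn2 at -0.56 (SE 0.27) and Cat at -0.61 (SE 0.31). Gstm1 followed at -1.62 (SE 0.86), and all had an edgeR adjusted p of 1. Blvra, Txn2 and Cat kept their sign without MCD replicate 2 (-0.50, -0.64 and -0.38), whereas Idh1 and Gstm1 went to 0.50 and 1.16. Among the NRF2 targets Nqo1 was at -2.68 (SE 2.07), Gclm at -1.38 (SE 0.83), Gclc at -0.90 (SE 1.72), Slc7a11 at -0.79 (SE 1.61), Hmox1 at -0.51 (SE 1.02) and Txnrd1 at -0.15 (SE 0.50), all with an edgeR adjusted p of 1. Without MCD replicate 2, 30 of the 42 genes were higher in the knockout and 12 lower, with a median of 0.41, and the median of all tested genes was then 0.11. In 15 members (35.7%) all 3 knockout libraries lay between the 2 MCD libraries, against 14.5% of all tested genes.

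CD73-MCD against NCD combines the diet and the knockout. It shares NCD with the first comparison, and the MCD libraries enter its p-values through the common estimate of the spread. Here 28 genes were higher and 14 lower, with a median log2 fold change of 0.10 (all tested genes 0.06, of which 52.8% were higher). No tested gene passed an edgeR adjusted p of 0.05 (0 of 14784, 0.00%), and DESeq2 called 562, 0 of them in the list. An unadjusted edgeR p under 0.05 was found for 3 genes, Osgin1, Gsr and Txnrd1, all higher, beside 8.97% of all tested genes (1326) and 4.72% that were higher. This count was 8 without either of the MCD libraries, with Blvrb, Gclm, Prdx5, Gsto1 and Gstm1 added (8.18% of all tested genes without MCD replicate 2, 8.11% without MCD replicate 1), and also 8 in a fit of these 2 groups alone. In that fit of 2 groups 9.74% of all tested genes did so. Without NCD replicate 2, which leaves 1 NCD library, Osgin1 was at 0.995 and Gsr at 1.56. These were their lowest log2 fold changes with a library left out. With CD73-MCD replicate 1, 2 or 3 left out, the count at an unadjusted edgeR p under 0.05 was 1, 1 and 2. Osgin1 was among them each time. Of all tested genes 6.72%, 6.54% and 8.85% did so. All 3 knockout libraries were above both NCD libraries for 11 genes (26.2%, beside 13.4% of all tested genes): Osgin1, Blvrb, Gclm, Gss, Gsr, Txnrd1, Txnrd2, Prdx5, Gsto1, Gstm1 and Mgst1. They were below both for Nqo1 alone (2.38%, beside 12.8%).

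Osgin1 had 35.8 ± 9.56 CPM in NCD (SD, n = 2) and 84.6 ± 17.2 CPM in CD73-MCD (SD, n = 3). For Gsr the group levels were 54.0 ± 18.8 and 198 ± 72.7 CPM, a log2 fold change of 1.87 (SE 0.69, edgeR adjusted p = 0.517). For Txnrd1 they were 46.2 ± 1.89 and 108 ± 10.2 CPM, a log2 fold change of 1.23 (SE 0.53, edgeR adjusted p = 0.556). For these 3 genes the gap between the group means exceeded the SD of either group, but none passed over all genes. Gsto1 and Blvrb followed at 1.45 (SE 0.68) and 2.09 (SE 1.06), with edgeR adjusted p = 0.58 and 0.599. Gclm was at 1.57 (SE 0.90) and Hmox1 at 1.17 (SE 1.07), with edgeR adjusted p = 0.625 and 0.821. With each library left out in turn, Osgin1 stayed between 0.995 and 1.54, Gsr between 1.56 and 2.28 and Txnrd1 between 1.18 and 1.31. In the same libraries the macrophage marker sum was 7471 to 12741 CPM in CD73-MCD, against 10937 CPM in NCD replicate 1 and 1226 CPM in NCD replicate 2, and the T cell sum was 5804 to 6946 CPM against 8501 and 12464 CPM. Lyz2 made up most of each macrophage sum, and the other macrophage markers did not all follow it. C1qa had 587 and 49.4 CPM in NCD and 115 to 162 CPM in CD73-MCD. Csf1r had 513 and 59.1 CPM in NCD and 367 to 639 CPM in CD73-MCD. The part of the macrophage and T cell markers in the differences was not tested.

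**Figure D4:**
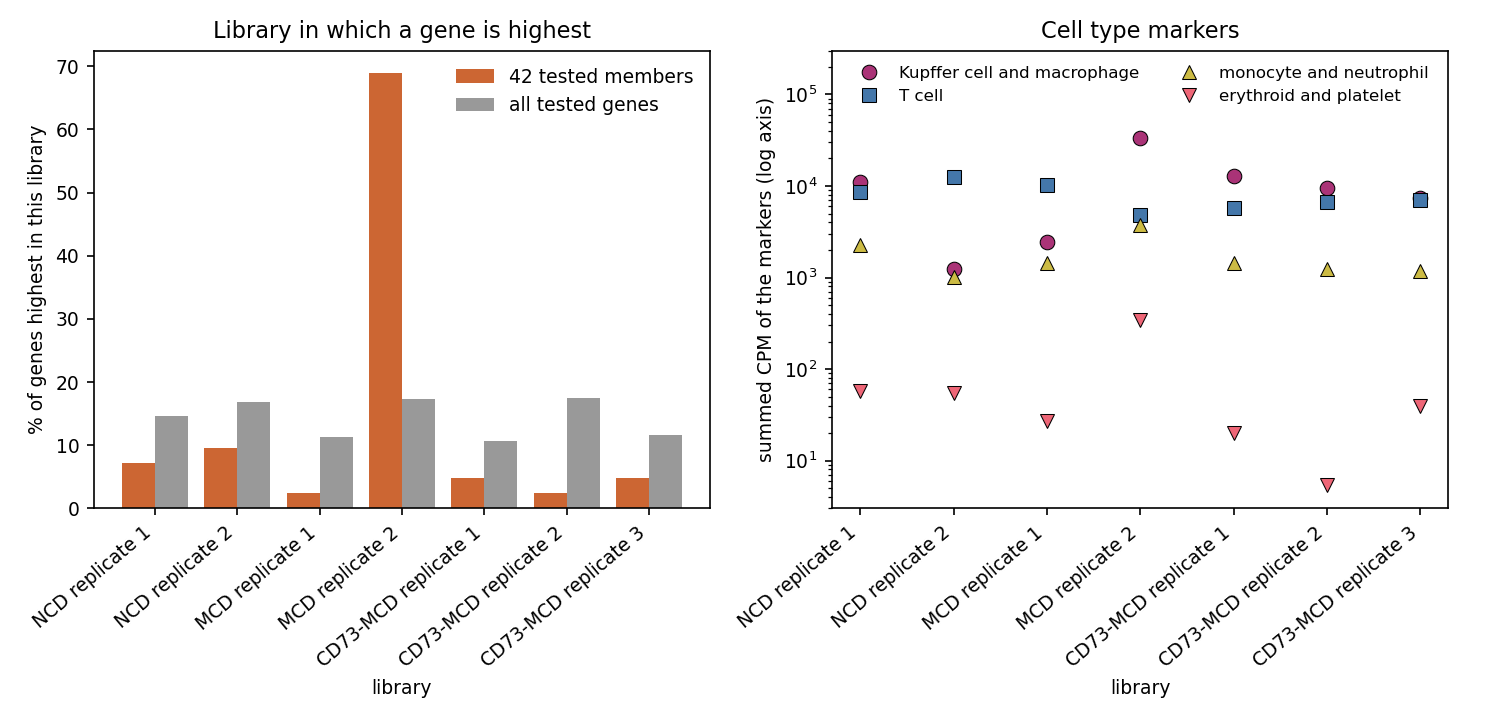
Left, percentage of the 42 tested genes of the list (orange) and of all tested genes (grey) that have their highest level in each library. Right, summed CPM of 4 marker lists in each library on a log axis. MCD replicate 2 holds 69.0% of the list's highest levels and also the highest macrophage marker sum (33281 CPM) and the lowest T cell sum (4852 CPM).

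A second list of 76 genes of the same pathways outside the 43, such as other glutathione transferases, glutaredoxins and partners of NRF2, was read for comparison, and 64 were tested. In MCD against NCD 35 of the 64 were higher and 29 lower (median 0.16), in CD73-MCD against MCD 23 were higher and 41 lower (median -0.30), and in CD73-MCD against NCD 26 were higher and 38 lower (median -0.10). Without MCD replicate 2 the first 2 directions turned here too: 25 of the 64 were higher in MCD against NCD (median -0.16) and 36 in CD73-MCD against MCD (median 0.05). None passed an edgeR adjusted p of 0.05. MCD replicate 2 was the highest library for 19 of the 64 (29.7%), against the 69.0% of the 43-gene list. At an unadjusted edgeR p under 0.05 were 3 genes, all higher, in the diet comparison (Cyb5r3, Gpx3 and Akr1b8), 3 in CD73-MCD against MCD, of which 1 was higher (of Nfe2l1, Abcc3 and Slc40a1), and 6 in CD73-MCD against NCD, of which 5 were higher. Of all tested genes 6.00%, 3.25% and 8.97% did so, and these counts of 64 are near that background.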

How the data were processed

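The authors deposited raw read counts per Ensembl gene ID, 1 column per library, and these counts were used as deposited. Per the submitters' processing notes, alignment used HISAT2 2.1.0 and GRCm38. Not given in the sources used here are the counting tool, its annotation and the strand setting. Symbols and coordinates came from GENCODE (GRCm38), in which 53360 of 53465 IDs were found. Genes passing filterByExpr (minimum count 10) were fitted over all 7 libraries by glmQLFit in edgeR 4.0.16 (R 4.3.3), after TMM scaling and with a coefficient for each group. They were tested by glmQLFTest, with Benjamini-Hochberg adjustment over all 14784 genes and a threshold of 0.05. The common dispersion was 0.833 (coefficient of variation 91.3%). The prior count of fitted log2 fold changes was 0.125. CPM use TMM-scaled library sizes. Alternatives were RLE scaling, no low-count filter, DESeq2 1.42.0, each library left out, the 2 groups alone, and the replicate number as a block.

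The members, the marker lists and the second pathway list were chosen with earlier results of these data known. By the rule for named genes, all 43 members were accounted for by role. Of these, 16 and the 5 with the smallest p in each comparison were given in every library. The rule also allowed up to 4 promoters in order of role. Gclm and Txnrd1 were shown beyond the rule, because later results name them. Protein sequences were not analysed here. The scripts were tested on simulated data. No libraries of a group agreed within counting noise (chi-square divided by its degrees of freedom, 89.4 to 324).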

Additional observations from a re-analysis of the deposited data

How the results depend on the processing

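The edgeR fit called 0 genes in each comparison. With no low-count filter it called 54 genes in MCD against NCD, 1 in CD73-MCD against MCD and 140 in CD73-MCD against NCD, and DESeq2 called 314, 50 and 562. The members' median log2 fold change ranged from -0.056 to 1.26 in MCD against NCD and from -0.86 to 0.41 in CD73-MCD against MCD when 1 library was left out in turn, with -0.056 and 0.41 both without MCD replicate 2. It stayed from 0.10 to 0.48 in CD73-MCD against NCD. RLE scaling gave 0.76, -0.54 and 0.12.

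Same-numbered libraries did not deviate together (correlation of deviations -0.10 between NCD and MCD, 0.03 and -0.05 between NCD and CD73-MCD, -0.02 and -0.08 between MCD and CD73-MCD), so the numbers were not taken to pair them. With the replicate number as a block, which leaves CD73-MCD replicate 3 a coefficient of its own, 0 genes were called and the medians were 0.69, -0.56 and 0.18. Nqo1 then went to -0.44 in MCD against NCD and Txnrd1 to 0.0089 in CD73-MCD against MCD. The crossed pairing of NCD and MCD alone, chosen after seeing the data, also called 0.

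Of 34 fold changes of named genes 13 changed sign when a library was left out, 10 of them without MCD replicate 2. Their ranges were -5.83 to 1.69 for Nqo1 and -0.75 to 3.95 for Hmox1 in MCD against NCD. In CD73-MCD against MCD they were -1.11 to 0.045 for Nfe2l2, -3.63 to 3.54 for Nqo1, -1.33 to 1.92 for Hmox1, -1.52 to 0.24 for Gclc, -2.18 to 0.90 for Gclm, -1.48 to 0.75 for Slc7a11, -0.78 to 1.09 for Txnrd1, -2.38 to 0.50 for Idh1 and -2.47 to 1.16 for Gstm1. In CD73-MCD against NCD they were -0.40 to 1.21 for Nfe2l2 and -0.31 to 9.78 for Gclc, whose highest value is fitted against a control library with 0 counts. Of 170 values of named genes under the other alternatives 2 changed sign and 4 came past the threshold, 3 of them by DESeq2 and 1, Gsr in MCD against NCD, with no low-count filter (edgeR adjusted p = 0.0439). The cause was not tested.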

Other observations

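Other marker lists were read in the same libraries. The 9 dendritic cell markers summed to 221 to 248 CPM in NCD, 348 to 591 CPM in MCD and 305 to 1044 CPM in CD73-MCD. The 7 B and plasma cell markers had 120 to 284 CPM in NCD, 308 to 432 CPM in MCD and 332 to 833 CPM in CD73-MCD, and the 8 NK and CD8 T cell markers 69.6 to 72.4 CPM in NCD, 155 to 398 CPM in MCD and 217 to 230 CPM in CD73-MCD. The 6 proliferation genes stood at 908 and 1191 CPM in NCD, 259 and 307 CPM in MCD and 137 to 261 CPM in CD73-MCD. Liver endothelial markers had 133 to 390 CPM over the 7 libraries, mostly from Pecam1 (52.9 to 222 CPM) and Fcgr2b (9.96 to 242 CPM). Of the others, Stab2 had at most 25.1 CPM, Clec4g at most 10.4 CPM and Kdr at most 4.42 CPM. Lyve1 was counted in MCD replicate 2 alone (6.20 CPM). Hepatocyte markers summed to 0.971 to 67.2 CPM, erythroid and platelet markers to 5.44 to 342 CPM, stellate cell markers to at most 11 CPM and cholangiocyte markers to 3.69 to 25.1 CPM, each with its highest sum in MCD replicate 2. Monocyte and neutrophil markers had 3739 CPM there and 1016 to 2277 CPM elsewhere. Elane and Mpo, granule genes of immature neutrophils, had 8.51 and 34.1 CPM in MCD replicate 2, while Elane was at 0 in the other 6 libraries and Mpo at 0 in 5 of them.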
